A study of Mus musculus with 6 samples.

Results

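Cell cycle genes were compared between cultured primary mouse microglia with and without Dap12, phase by phase and array by array. The genes were chosen by name, as 33 known genes of DNA replication, mitosis and G1, and 32 of them had a probe set annotated to that gene alone, of 18193 genes with such a probe set on the array. The probe set with the highest mean signal stood for each gene. This gave 11 genes of DNA replication (S phase), 19 genes of G2 and mitosis, and the 2 G1 cyclins Ccnd1 and Ccne1, while Ccnb1, which encodes cyclin B1, was not analysed here. RNA came from 3 wild-type and 3 Dap12-deficient microglial cultures, with 1 single-colour oligonucleotide array per culture. The labels call the groups wt and Dap12-ko and give no strain, age, sex, allele or number of animals, and the titles of 4 arrays carry a pair of numbers of unstated meaning. The p-values given below therefore cover the spread between cultures, which may be technical. Values are linear signals that the submitters had scaled to a common mean on each array. Log2 differences are Dap12-deficient minus wild-type on the scale log2(signal + 16), which understates differences of dim genes.

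Dap12, encoded by Tyrobp, is an adaptor that couples receptors of myeloid cells to intracellular kinases, and microglia, the macrophages of the brain, divide in culture under the control of growth factors. A dividing cell makes its replication genes in late G1 and S phase, when E2F factors are active, and its mitosis genes in G2. Many promoters of mitosis genes carry a cell cycle genes homology region (CHR) and CCAAT boxes bound by NF-Y. There the DREAM complex represses in resting cells and G1, and its MuvB core later joins B-MYB and then FOXM1 to activate. In a culture that is not synchronised, the level of either class follows the share of cells in that phase and the amount made per cell. These arrays measure RNA of whole cultures, so fewer dividing cells and less RNA per dividing cell cannot be told apart.

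Of the motifs searched in the promoter windows, the CHR set the classes furthest apart, while CCAAT boxes and E2F matches stood in both. RefSeq windows on build GRCm38.p6, from 250 bases before to 50 bases after the annotated start, were matched for 28 of the 33 genes, the others being Mcm4, Ccna2, Aurkb, Kif20a and Ccnd1. Of 17 mitosis genes with a window, Ccnb1 included, 14 (82.4%) held a CHR, searched as TTTGAA or TTCGAA on both strands, against 2 of 10 replication genes (20.0%) and 19.2% of all 32851 windows in the table. In 13 of those 14 mitosis genes a CHR began within 50 bases of the start, a placing seen in 0 of the replication genes and 5.31% of all windows. A CCAAT box, searched as CCAAT on both strands, stood in 15 mitosis windows (88.2%) and 8 replication windows (80.0%), against 37.4% of all windows. An E2F site, searched on both strands as TTTCCCG or TTTGGCG or TTTCGCG or TTTGCCG or TTCCCGC or TTGGCGC or TTCGCGC or TTGCCGC, stood in 6 of 10 replication windows (60%), 6 of 17 mitosis windows (35.3%) and 13.4% of all windows. An inverted CCAAT box shares letters with TTGGCGC, and 1 E2F match each in Mcm7 and Ccnb1 overlapped a CCAAT box. Such a match is a description of the letters and not evidence of binding.

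The windows of 5 genes are printed 5′ to 3′ in the direction of transcription, with matches to the 3 motifs in capitals. Cenpa, Cdc20 and Ube2c were the mitosis genes with the largest log2 differences, and each joins CCAAT boxes with a CHR near the start. Birc5, with the next largest difference, holds neither and has an E2F match alone. Mcm6, the replication gene whose brightest probe set separated the groups, holds E2F matches and CCAAT boxes and no CHR.
Cenpa, chr5:30666636-30666935, plus strand: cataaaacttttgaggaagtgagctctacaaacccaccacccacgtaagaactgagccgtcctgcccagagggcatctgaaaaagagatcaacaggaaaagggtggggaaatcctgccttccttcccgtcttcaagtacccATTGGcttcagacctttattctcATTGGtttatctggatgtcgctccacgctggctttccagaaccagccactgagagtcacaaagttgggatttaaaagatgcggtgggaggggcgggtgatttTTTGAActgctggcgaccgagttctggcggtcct
Cdc20, chr4:118437294-118437593, minus strand: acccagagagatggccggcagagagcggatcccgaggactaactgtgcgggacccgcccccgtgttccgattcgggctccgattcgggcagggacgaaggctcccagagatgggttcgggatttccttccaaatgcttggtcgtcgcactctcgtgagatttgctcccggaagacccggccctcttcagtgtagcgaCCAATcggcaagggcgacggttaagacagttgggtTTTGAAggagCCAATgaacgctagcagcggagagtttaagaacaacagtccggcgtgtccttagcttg
Ube2c, chr2:164769679-164769978, plus strand: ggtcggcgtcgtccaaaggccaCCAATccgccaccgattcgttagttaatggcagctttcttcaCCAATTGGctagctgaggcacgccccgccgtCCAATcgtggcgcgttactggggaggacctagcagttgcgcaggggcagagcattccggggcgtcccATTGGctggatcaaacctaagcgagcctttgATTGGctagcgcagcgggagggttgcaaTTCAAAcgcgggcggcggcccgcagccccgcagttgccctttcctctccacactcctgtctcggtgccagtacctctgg
Birc5, chr11:117848987-117849286, plus strand: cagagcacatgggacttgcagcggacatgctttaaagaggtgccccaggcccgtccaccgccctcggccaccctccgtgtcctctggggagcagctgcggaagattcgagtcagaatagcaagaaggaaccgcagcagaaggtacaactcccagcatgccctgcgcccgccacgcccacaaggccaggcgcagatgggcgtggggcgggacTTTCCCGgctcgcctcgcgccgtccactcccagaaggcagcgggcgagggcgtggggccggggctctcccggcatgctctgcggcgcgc
Mcm6, chr1:128359656-128359955, minus strand: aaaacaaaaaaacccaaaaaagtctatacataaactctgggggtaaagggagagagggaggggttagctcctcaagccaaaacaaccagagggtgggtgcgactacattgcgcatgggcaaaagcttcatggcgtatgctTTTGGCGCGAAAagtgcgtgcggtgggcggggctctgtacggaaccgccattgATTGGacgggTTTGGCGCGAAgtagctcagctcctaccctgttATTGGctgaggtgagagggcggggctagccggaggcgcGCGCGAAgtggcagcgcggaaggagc

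**Figure D1:**
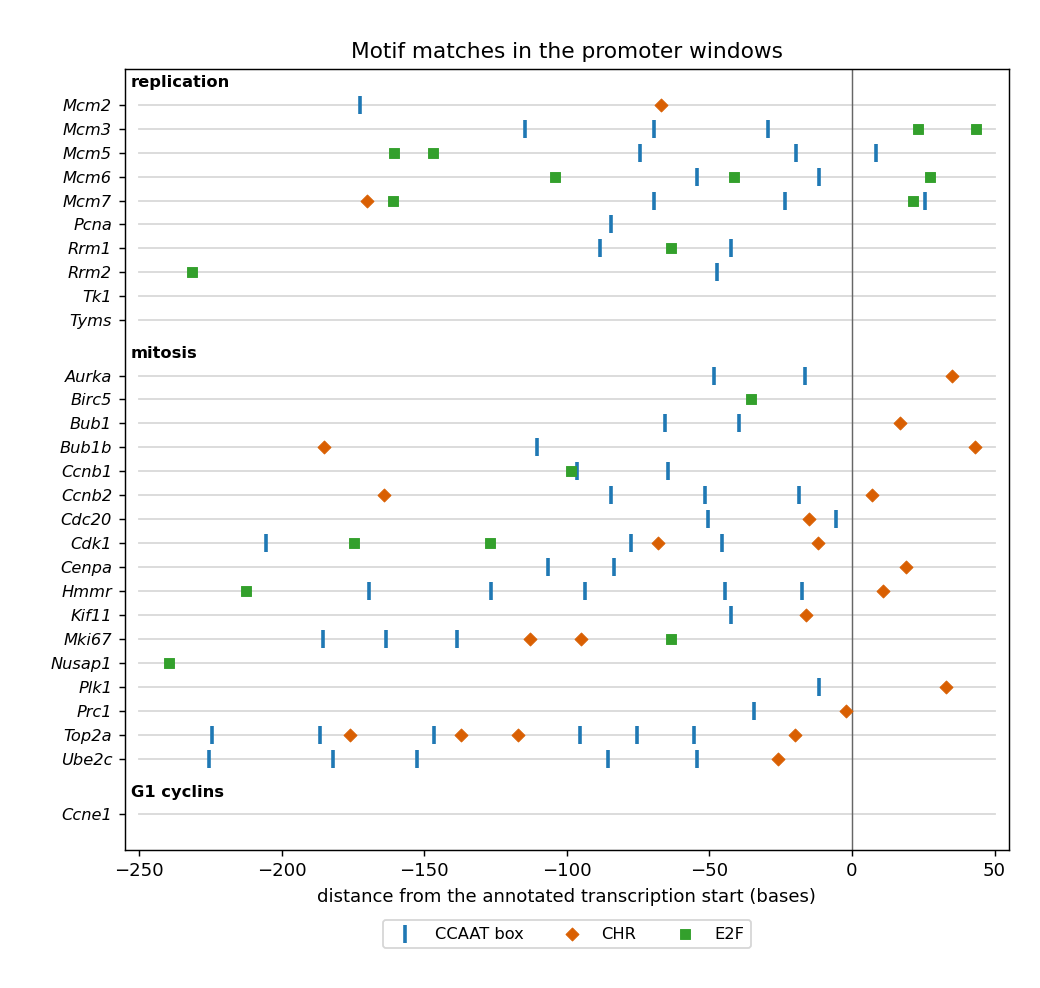
Matches to the CCAAT box, the CHR and the E2F site in the promoter windows of 28 cell cycle genes, placed by distance in bases from the annotated transcription start (vertical line at 0), 1 row per gene and a grey line for each window. CHR matches (diamonds) stand in 14 of 17 mitosis genes, mostly near the start, and in 2 of 10 replication genes.

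The targeted gene and the quality of the arrays were checked before the cell cycle genes. Signals of Tyrobp were 5584, 7271 and 5396 on wild-type arrays 1 to 3, against 125, 96.4 and 96.2 on the Dap12-deficient ones, and it fell (log2 difference -5.64, SE 0.20; limma adjusted p = 8.14e-07). Median signals were between 11.89 and 14.04 on wild-type and between 14.6 and 16.5 on Dap12-deficient arrays. The number of arrays limits the precision of all values. Markers of the labelled cell type were abundant: the summed signal of 18 measured microglia and macrophage markers of 20 was 46643 to 64185 in wild-type and 38146 to 54305 in Dap12-deficient cultures, and 17 of the 18 had a negative log2 difference, with a median of -0.31. Y-linked genes were lower in every Dap12-deficient culture. Eif2s3y was at 611, 571 and 649 in wild-type cultures, against 64.5, 141 and 176 in those without Dap12, with Kdm5d and Uty likewise not overlapping, and Xist was at 251, 277 and 1164 against 2514, 2483 and 1228. The part of the sex of the donors in the cell cycle values was not tested beyond a fit with a Y-linked term, given below.

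Genes of mitosis had lower signals in Dap12-deficient cultures, while genes of replication lay on both sides of the wild-type level. All 19 mitosis genes had a negative log2 difference, with a median of -0.38 and a range of -0.74 to -0.0063, where 54.8% of 12875 genes with 1 tested probe set each were negative and their median was -0.03. The microglia and macrophage markers, with a median of -0.31, were nearly as low as the mitosis genes, and their part in these values was not tested. Of the 11 replication genes 6 were negative and 5 positive, with a median of -0.03 and a range of -0.44 to 0.28. With arrays scaled to a common median, 10 of the 11 replication genes were negative, with a median of -0.23 that equalled the median of all genes on that scale. No single gene passed the threshold: of 31 genes bright enough to be tested, 0 had a limma adjusted p under 0.05 over all 27022 probe sets, of which 2 (0.0074%) passed. At an unadjusted p under 0.05 there were 7 of the 31, all with negative differences, against 1240 of the 12875 genes (627 negative and 613 positive). The adjusted p of the members lay between 0.335 and 0.995. Tyms, thymidylate synthase, was too dim to be tested, with signals between 1.13 and 6.90.

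Signals of the groups did not overlap for 7 of the 19 mitosis genes (36.8%), all lower in Dap12-deficient cultures, where 8.85% of the 12875 genes lay wholly below and 7.54% wholly above wild-type. Among the 11 replication genes this was the case for Mcm6 alone (9.09%), also lower. The 7 were Ccnb2, Cdk1, Birc5, Cenpa, Nusap1, Ube2c and Hmmr, and Ccne1 of the G1 cyclins separated the groups too. The count was 13 with arrays scaled to a common median, where 3088 of the 12875 genes lay wholly below, and 4 after cyclic loess, where 8.92% did. It was 17 without Dap12-deficient array 3, where the smaller group left 14.2% of all genes wholly below. With a term for the Y-linked genes in the fit, 6 of the 19 mitosis genes were negative and their median was 0.25.

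**Figure D2:**
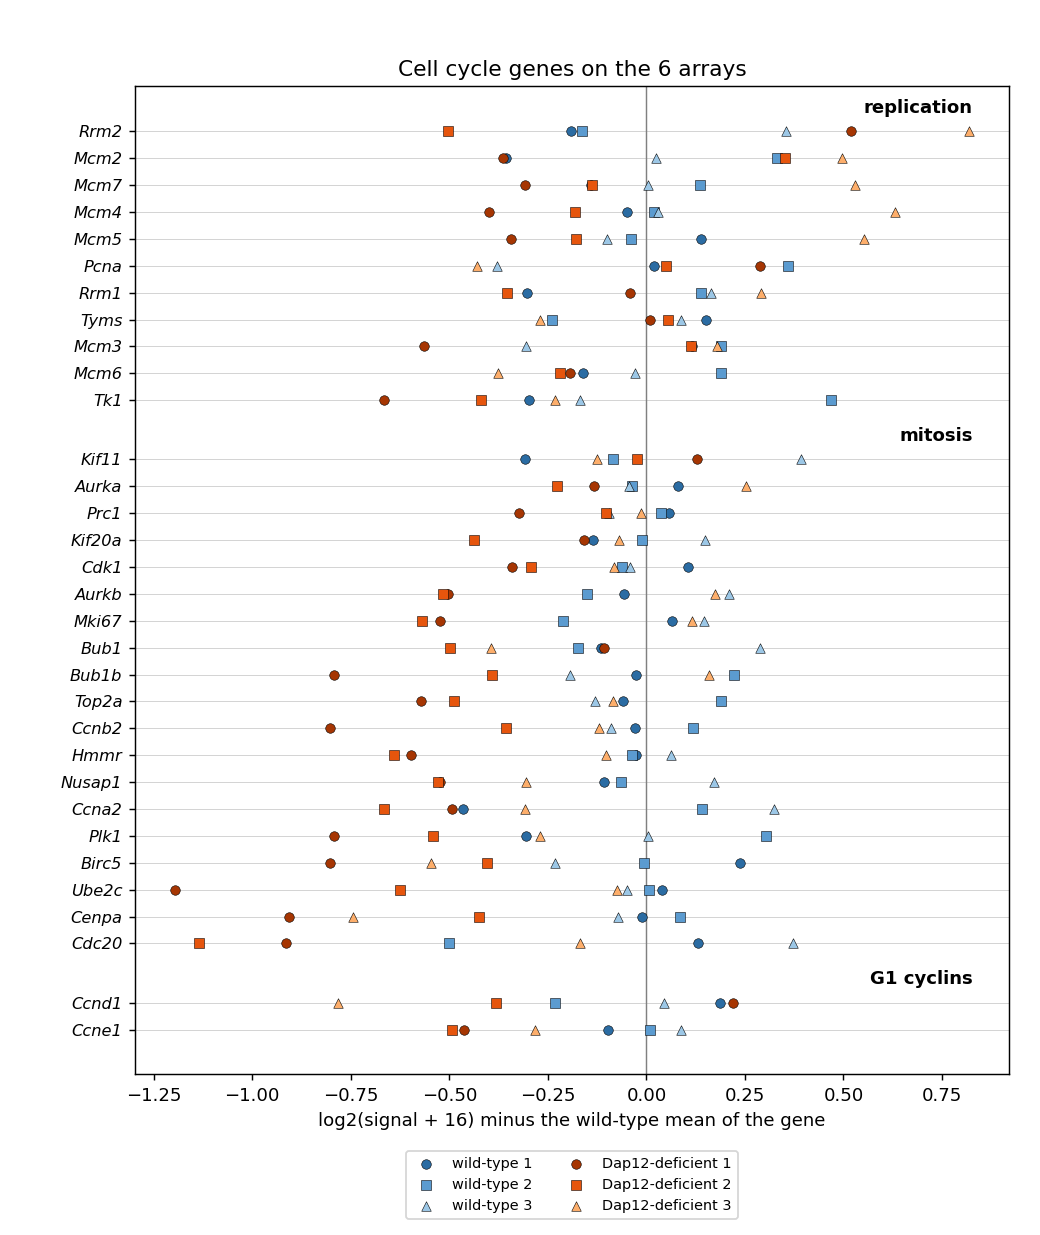
Each row is 1 of the 32 genes and each point 1 array, as log2(signal + 16) minus that gene's wild-type mean, with wild-type arrays in blue and Dap12-deficient arrays in orange. Most mitosis rows have Dap12-deficient arrays 1 and 2 to the left of all wild-type points, while in the replication rows Dap12-deficient array 3 is often the point farthest to the right.

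Of 5 genes of the centromere, the chromosomal passenger complex and the spindle checkpoint, Cenpa and Birc5 separated the groups, and Aurkb, Bub1 and Bub1b overlapped. Cenpa encodes the histone H3 variant that marks centromeres. Its signals were 717, 767 and 686 in wild-type cultures, against 378, 535 and 425 in those without Dap12, so that the highest Dap12-deficient array was below the lowest wild-type array. The means of 723 ± 40.9 (SD, n = 3) and 446 ± 80.3 (SD, n = 3) differed 1.62-fold (log2 difference -0.69, SE 0.19, limma adjusted p = 0.335). Birc5 encodes survivin, the subunit that brings the passenger complex to the inner centromere, and had 174, 144 and 121 against 76.3, 106 and 94.3, again without overlap (log2 difference -0.58, SE 0.21, adjusted p = 0.374). Aurkb, the kinase of that complex, had 50.9, 46.7 and 64.5 against 33.2, 32.7 and 62.6. Only its arrays 1 and 2 were below wild-type, and the log2 difference was -0.28 (SE 0.23). The checkpoint kinase Bub1 had 95.5, 91.1 and 131 against 96.1, 69.5 and 75.8, and the related Bub1b 111, 135 and 96.9 against 58.5, 82.5 and 128. Both overlapped, with log2 differences of -0.33 (SE 0.21) and -0.34 (SE 0.26).

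Genes of the anaphase-promoting complex, the ubiquitin ligase that ends mitosis, had large log2 differences and wide spreads. Cdc20, its mitotic activator, had signals of 600, 382 and 712 in wild-type cultures, against 283, 241 and 485 in those without Dap12. Its log2 difference of -0.74 was the largest of the 32 genes, but its arrays overlapped and the error was wide (SE 0.30, limma adjusted p = 0.424). Ube2c, the ubiquitin-conjugating enzyme of the complex, lay close together in wild-type cultures, at 209, 204 and 195, and spread without Dap12, at 79.3, 125 and 191. Array 3 was thus just below the lowest wild-type array, and the log2 difference was -0.63 (SE 0.27, adjusted p = 0.446).

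Cyclins and kinases of mitotic entry had negative differences of unequal size. Ccnb2, cyclin B2, had 182, 204 and 174 against 99.9, 142 and 170, and Cdk1, the kinase it activates, had 332, 294 and 299 against 239, 248 and 290. In both genes Dap12-deficient array 3 was just under the lowest wild-type array, with log2 differences of -0.43 (SE 0.22) and -0.24 (SE 0.18). Ccna2, cyclin A2, which acts in S phase and G2, had 202, 316 and 361 against 198, 174 and 227, overlapping through wild-type array 1 (-0.49, SE 0.24). Plk1, a kinase of spindle assembly, had 40.3, 69.8 and 53.7 against 24.2, 31.8 and 41.7 (-0.53, SE 0.23). Aurka, the kinase of spindle poles, was close to equal on average, with 76.7, 69.6 and 69.0 against 64.04, 59.0 and 88.5 (-0.03, SE 0.20). For Aurka, Dap12-deficient array 3 was the highest of all 6.

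By their brightest sets, genes of spindle and chromosome proteins ranged from groups without overlap to no difference on average. Nusap1, which bundles spindle microtubules, had 130, 134 and 161 against 93.2, 92.7 and 111 (log2 difference -0.45, SE 0.19, limma adjusted p = 0.444), and Hmmr, a spindle pole protein, 101, 99.97 and 108 against 62.5, 60.2 and 94.7 (-0.45, SE 0.21, adjusted p = 0.482). Neither overlapped. Top2a, the topoisomerase that untangles sister chromatids, had 348, 415 and 330 against 239, 254 and 341, and Mki67, which coats mitotic chromosomes and is a common marker of dividing cells, 658, 541 and 697 against 432, 418 and 682. For both, array 3 of the Dap12-deficient group lay within the wild-type range, with log2 differences of -0.38 (SE 0.21) and -0.33 (SE 0.23). The midzone protein Prc1 (-0.15, SE 0.19) and the kinesin of cytokinesis Kif20a (-0.22, SE 0.20) had small differences. The spindle kinesin Kif11 had 39.7, 49.1 and 74.6 against 59.5, 51.8 and 47.3, a log2 difference of -0.0063 (SE 0.22), and was the sole mitosis gene with its lowest signal on a wild-type array.

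**Figure D3:**
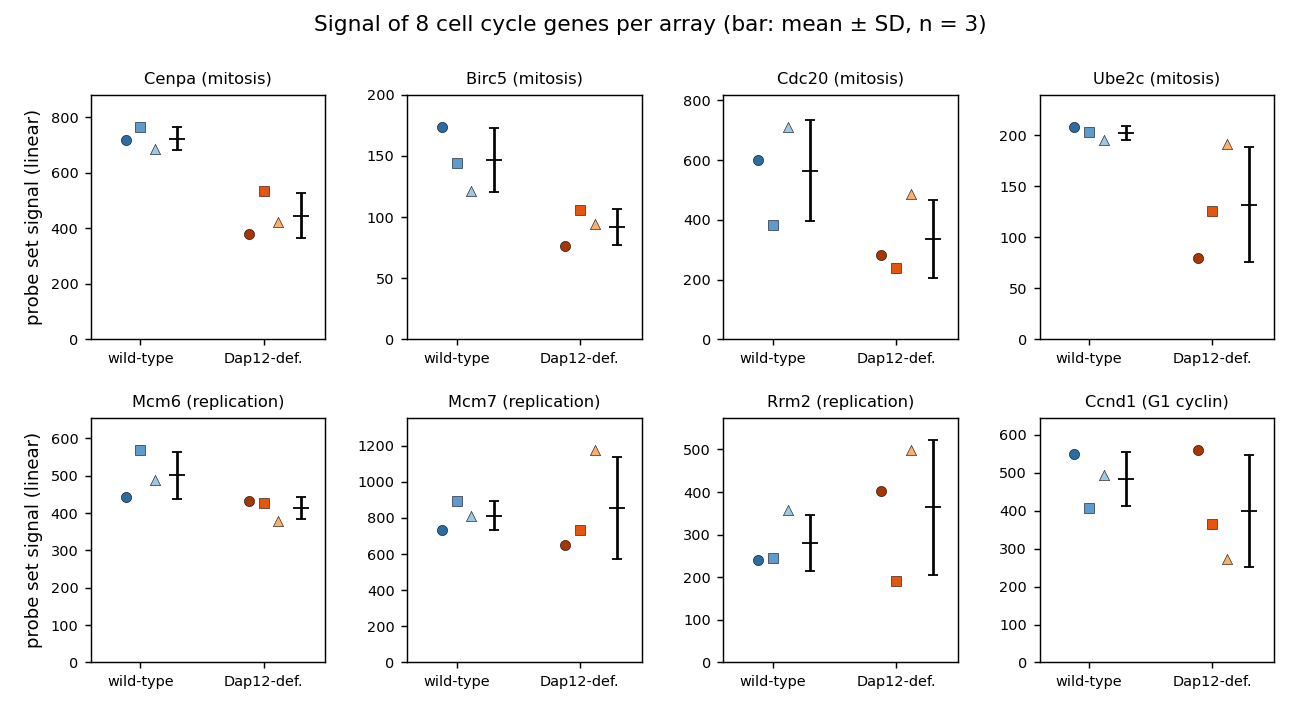
Linear probe set signal of 8 genes on each array, circles, squares and triangles for arrays 1, 2 and 3 of each group, with the mean ± SD (n = 3) beside them and each axis starting at 0. Cenpa, Birc5 and Ube2c do not overlap between the groups, while Mcm7 and Rrm2 are highest on Dap12-deficient array 3 and Ccnd1 is lowest there.

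The genes of the replicative helicase showed no common direction. Mcm2 to Mcm7 encode the 6 subunits of the ring that unwinds DNA, which in the cell work as 1 complex. Mcm7 had 734, 893 and 813 in wild-type cultures, against 651, 735 and 1178 without Dap12, and its log2 difference was 0.03 (SE 0.24). Mcm4 had 392, 411 and 415 against 304, 356 and 638 (0.02, SE 0.26), and Mcm5 334, 294 and 281 against 235, 266 and 451 (0.01, SE 0.25). In these 3 genes Dap12-deficient array 3 was the highest array and array 1 the lowest, so that the log2 range within that group was 0.84 to 1.03, against 0.08 to 0.28 among wild-type arrays. Mcm2 had 116, 196 and 155 against 115, 199 and 221 (0.16, SE 0.27), and Mcm3 427, 449 and 315 against 261, 426 and 447 (-0.09, SE 0.25). By the brightest sets Mcm6 alone separated the groups, with 444, 570 and 488 against 434, 426 and 380, a narrow gap. Its log2 difference was -0.26 (SE 0.19, limma adjusted p = 0.637). A second set of Mcm6 overlapped, with 355, 377 and 346 against 273, 345 and 416 (-0.08, SE 0.20), and there Dap12-deficient array 3 was the highest of all 6.

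Genes of the sliding clamp and of nucleotide supply overlapped between the groups. Pcna, the clamp that holds DNA polymerase, was the brightest of the 32 probe sets, with 4420, 5604 and 3350 against 5330, 4518 and 3237 (log2 difference -0.03, SE 0.24). Rrm1 and Rrm2 encode the subunits of ribonucleotide reductase. Rrm1 had 271, 374 and 381 against 328, 261 and 417 (-0.04, SE 0.23), and Rrm2 had 240, 245 and 358 against 403, 190 and 499.6 (0.28, SE 0.32), the highest log2 difference of the 32 genes. Tk1, the thymidine kinase of S phase, was the replication gene with the lowest log2 difference, at 72.6, 135 and 80.9 against 52.6, 65.5 and 76.9 (-0.44, SE 0.24, limma adjusted p = 0.551). Its overlap came from Dap12-deficient array 3 and wild-type array 1.

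The G1 cyclins were not alike. Ccne1, cyclin E1, which starts S phase with Cdk2, had 92.8, 101 and 108 against 68.5, 66.6 and 79.6, without overlap (log2 difference -0.41, SE 0.18, limma adjusted p = 0.464). Its second probe set, of lower signal, gave 0.06. Ccnd1, cyclin D1, the sensor of growth signals, had 549, 407 and 495 against 561, 365 and 272, and its log2 difference was -0.31 (SE 0.26). In this brightest set Dap12-deficient array 1 was the highest of all 6 and array 3 the lowest, the opposite of the order in Mcm4, Mcm5 and Mcm7. The other probe sets of Ccnd1 gave 0.17 and 0.25. In both of them Dap12-deficient array 3 was the highest of all 6 arrays, at 198 and 184, so that order was not shared between the sets.

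Array by array, the mitosis genes lay further below the wild-type level than the replication genes in each Dap12-deficient culture. Averaged over the 19 mitosis genes, the deviation from the wild-type mean was -0.54, -0.47 and -0.14 on Dap12-deficient arrays 1, 2 and 3, while wild-type arrays lay between -0.05 and 0.06. For the 11 replication genes it was -0.19, -0.13 and 0.20, where wild-type arrays spanned -0.10 to 0.13. The mitosis mean minus the replication mean was therefore -0.36, -0.34 and -0.34 on the 3 Dap12-deficient arrays, a narrower span than the 0.05, -0.14 and 0.09 of the wild-type arrays, and without overlap. This gap of -0.35 between the groups stayed between -0.41 and -0.27 under all 20 alternatives, the Y-linked term included (-0.36). Neither the other probe sets by themselves nor longer gene lists were among the alternatives. On Dap12-deficient arrays 1, 2 and 3 the other sets gave 0.0038, -0.19 and -0.35, so that array 1 did not show the gap. The longer lists gave -0.08, -0.11 and -0.03, which overlapped wild-type arrays (-0.07 to 0.04). Several of the 20 alternatives could not move the gap. Changes of filter, intensity trend or variance prior leave the log2 differences as they are, and a scale factor per array largely cancels in the gap. The fit with the Y-linked term rests on few differences within a group, and the part of sex in the gap was not tested. The gap was chosen after values were seen, is a description of chosen genes and carries no p.

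Dap12-deficient array 3 stood apart from arrays 1 and 2. On both arrays 1 and 2, 17 of the 19 mitosis genes were below every wild-type array, as were 4 of the 11 replication genes and 1823 of the 12875 genes. On array 3 alone 8 of the 19 were below every wild-type array, a share of 42.1%, against 32.6% of all genes. Array 3 had the highest signal of all 6 arrays for 6 of the 11 replication genes (54.5%) and for 20.5% of all genes. This depended on sets whose name marks probes that can bind several transcripts. With these left out, array 3 was the highest for 3 of the 11 (27.3%), and the replication mean on it was 0.06 instead of 0.20. The order of Eif2s3y over the 3 Dap12-deficient cultures, from 64.5 on array 1 to 176 on array 3, was that of both the mitosis and the replication mean. Kdm5d and Uty had the same order there. Among wild-type arrays Eif2s3y was ordered like neither mean. Kdm5d (53.4, 68.4 and 62.0) and Uty (42.7, 71.0 and 69.9) were ordered like the replication mean. The fitted Y-linked term (0.57, 0.82 and 0.84) was ordered like the mitosis mean. What these orders owe to sex was not tested. With the Y-linked term the medians were 0.25 for mitosis and 0.64 for replication genes.

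**Figure D4:**
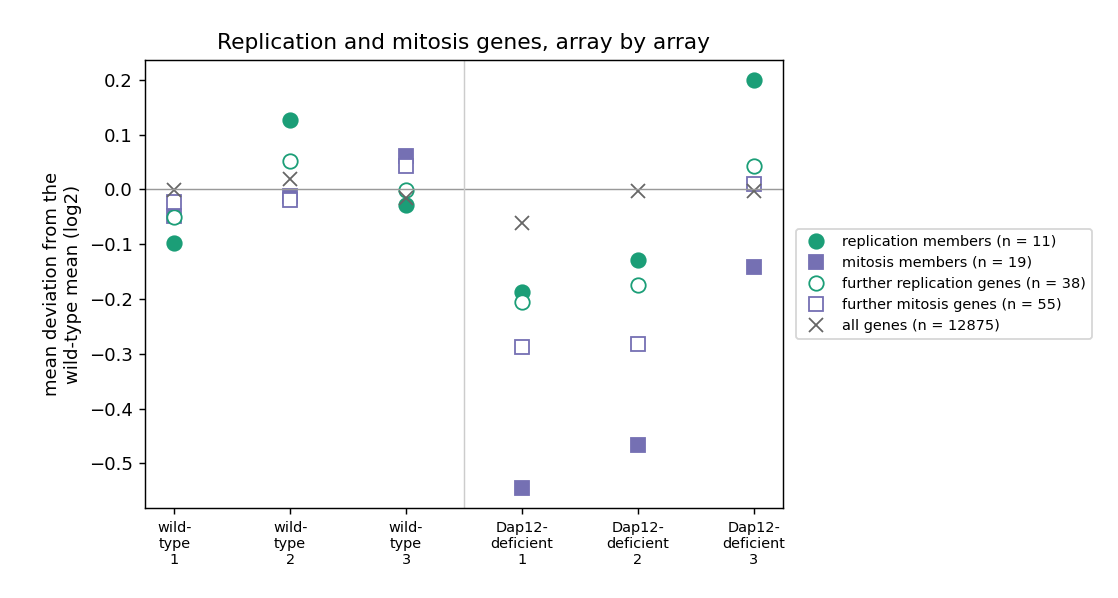
Mean deviation from the wild-type mean (log2 scale) on each of the 6 arrays, for the 11 replication and 19 mitosis genes (filled), 38 further replication and 55 further mitosis genes (open) and 12875 genes of the array (crosses). On every Dap12-deficient array the filled square of the mitosis genes lies below the filled circle of the replication genes, by -0.36, -0.34 and -0.34, while the open symbols lie closer together.

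Other probe sets of the same genes gave medians near 0 in both classes, with positive values up to 0.87 among the replication genes. Of 15 other tested probe sets of mitosis genes 8 were negative and 7 positive, with a median of -0.05, and of 14 of replication genes 5 were negative and 9 positive, with a median of 0.06. Among 11 mitosis genes with several tested probe sets, all sets had the same sign in 5. Ccna2 (-0.39, SE 0.19) and Aurkb (-0.35, SE 0.21) had a second set with a difference like the first. That of Ccna2, with 113, 147 and 123 against 88.7, 102 and 89.1, did not overlap. Of the 15 other mitosis sets it was the only 1 (6.67%) wholly below wild-type, and 0 lay wholly above. Over all genes 8.85% lay wholly below and 7.54% wholly above. The negative share of the 15 sets, 53.3%, was close to the 54.8% of all genes. A second set of Cdc20 gave 152, 181 and 183 against 193, 103 and 176, a log2 difference of -0.15 (SE 0.24) where the brightest gave -0.74. A second set of Cenpa, with a mean signal of 48.8 over the 6 arrays against 585 for the brightest, gave -0.09 (SE 0.33). Second sets of Prc1 and Bub1b were positive, at 0.20 (SE 0.19) and 0.08 (SE 0.21). The mean of these other sets for mitosis minus replication genes was 0.0038, -0.19 and -0.35 on Dap12-deficient arrays 1, 2 and 3, where wild-type arrays spanned -0.05 to 0.04, so that array 1 did not show the gap in them.

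Probe sets of the helicase genes differed by kind. Some sets are of a kind whose name marks probes that can bind several transcripts. The brightest set was of that kind for 6 of the 11 replication genes and 4 of the 19 mitosis genes, Cdc20 included. With sets of that kind left out, Mcm4 had 277, 274 and 285 in wild-type cultures, against 201, 201 and 269 in the others. These did not overlap (log2 difference -0.31, SE 0.19). The high value of array 3 in its brightest set was thus absent from the second. For Mcm7 array 3 was the highest in all 4 sets, and for Mcm3 a dim set gave 40.4, 42.9 and 36.1 against 70.1, 53.4 and 89.8 (0.62, SE 0.21). The dimmer sets of Rrm2 gave 0.87 (SE 0.40) and -0.09 (SE 0.21). Without that kind of set the mitosis mean minus the replication mean was -0.41, -0.31 and -0.19 on Dap12-deficient arrays, while wild-type arrays lay between -0.08 and 0.09. The mean deviation of Mcm2 to Mcm7 on Dap12-deficient array 3 was then 0.05, against 0.34 by the brightest sets.

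**Figure D5:**
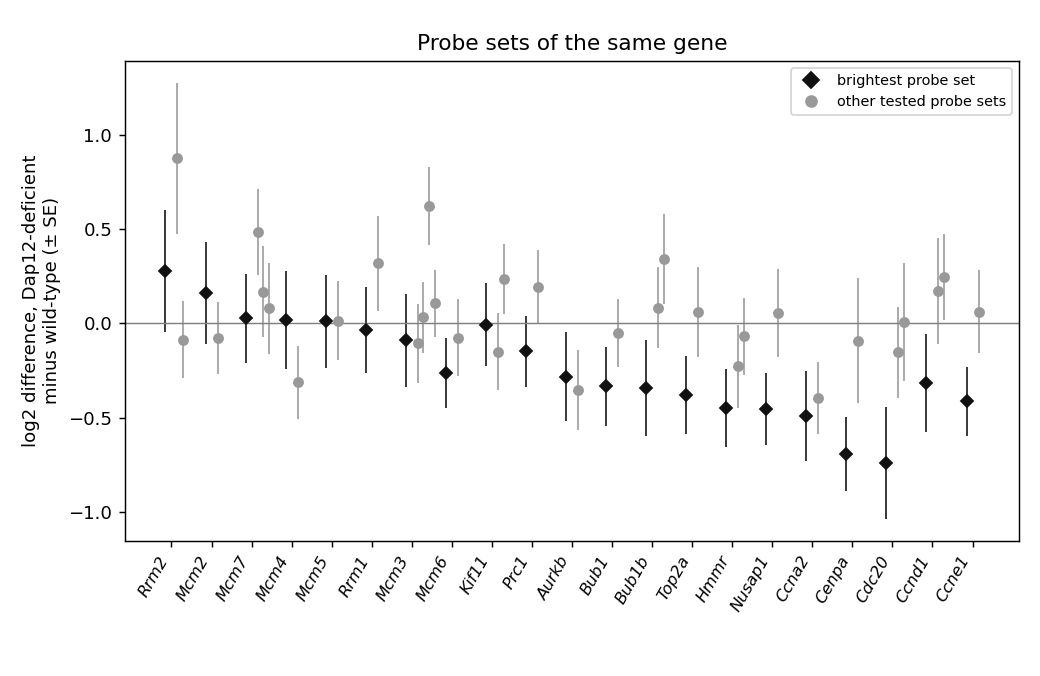
Log2 difference (Dap12-deficient minus wild-type, ± SE) of the brightest probe set (diamonds) and of the other tested probe sets (grey circles) for the 21 genes with several tested sets. The brightest sets of Cenpa (-0.69) and Cdc20 (-0.74) lie below their other sets, and the sets of Rrm2 range from -0.09 to 0.87.

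Further genes of the same phases, listed from their known roles, lay closer together than the members: the mitosis median was nearer 0 and the replication median further below it. Of 55 measured further mitosis genes 43 were negative, with a median of -0.23, and 12 (21.8%) lay wholly below wild-type and 0 wholly above. Over all 12875 genes 54.8% were negative, 8.85% lay wholly below and 7.54% wholly above. Dlgap5, a spindle protein, had 40.2, 43.5 and 47.5 against 14.99, 28.9 and 20.1 (log2 difference -0.69, SE 0.20, limma adjusted p = 0.335). Cep55 and Anln, both of cytokinesis, had -0.70 (SE 0.23) and -0.61 (SE 0.21), each without overlap. The positive members with the smallest p were the lamin gene Lmnb1 (0.75, SE 0.28), the condensin subunit gene Ncapg2 (0.44, SE 0.24) and the chromatin protein gene Hmgb2 (0.40, SE 0.31). Of 38 further replication genes 24 were negative, with a median of -0.10, and 8 (21.1%) lay wholly below wild-type and 0 above. The share wholly below was thus alike in both phases here, unlike among the members. The clamp loader subunit Rfc5 (-0.54, SE 0.24), the helicase cofactor Gins4 (-0.42, SE 0.21) and the histone chaperone Asf1b (-0.37, SE 0.18) were the lowest in p, and the replication licensing and initiation genes Cdc45 (0.28, SE 0.20), Cdc6 (0.23, SE 0.22) and Mcm10 (0.31, SE 0.31) were positive. By limma 0 genes of either list passed the threshold. At an unadjusted p under 0.05 there were 6 of 54 tested mitosis genes and 1 of 38 replication genes, beside 1240 of 12875 genes. For these longer lists the mitosis mean minus the replication mean was -0.08, -0.11 and -0.03 on Dap12-deficient arrays and -0.07 to 0.04 on wild-type arrays, which overlap.

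Regulators of the cycle lay on both sides. Of 25 G1 cyclins, kinases and transcription factors 18 were negative, with a median of -0.19. The E2F partner Tfdp1 had 530, 605 and 769 against 476, 467 and 389, without overlap (log2 difference -0.49, SE 0.20), and E2f7, a repressor of the E2F family, and Myc had -0.48 (SE 0.22) and -0.40 (SE 0.20). Cdk2, the kinase of S phase entry, was higher on all Dap12-deficient arrays, with 108, 39.8 and 64.3 against 16.05, 35.5 and 26.4 (0.996, SE 0.30, limma adjusted p = 0.335). Ccnd2 and E2f2 had 0.36 (SE 0.27) and 0.24 (SE 0.19). Among 16 inhibitors and quiescence genes 7 were negative and 9 positive, with a median of 0.09. Gadd45a, a stress gene that inhibits Cdk1, had 139, 276 and 488 against 967, 461 and 457 (1.09, SE 0.41, adjusted p = 0.392), and Gadd45b 321, 304 and 415 against 287, 470 and 1643 (0.80, SE 0.49). The inhibitor Cdkn1c (-0.54, SE 0.20) and the inhibitor of cyclin D kinases Cdkn2c (-0.37, SE 0.18) lay wholly below wild-type, Ccng2 had -0.36 (SE 0.26), and Cdkn2b had 0.38 (SE 0.21). At an unadjusted limma p under 0.05 there were 2 of 25 tested genes in the first list and 2 of 15 in the second. Over all genes this held for 1240 of 12875. After adjustment 0 genes of these lists passed.

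Markers of other cells that divide or could be present in such cultures also differed. Of 12 measured oligodendrocyte markers of 13, 10 were negative and 9 had an unadjusted limma p under 0.05, with a median of -1.28, larger in size than that of the mitosis genes. Over all genes 54.8% were negative, and 1240 of 12875 had such a p. The summed signal of these markers was 7076 to 10749 in wild-type and 3242 to 8462 in Dap12-deficient cultures. By limma 0 of them passed the threshold. Precursor markers, 7 of 8 measured, summed to 2852 to 3461 and 2953 to 3343, with 4 negative and a median of -0.06. Cspg4, a proteoglycan of precursors and pericytes and 1 of these 7, had 174, 165 and 162 against 45.8, 55.4 and 43.3 (-1.51, SE 0.18, limma adjusted p = 0.0613). Astrocyte markers, 14 of 14 measured, had 12 positive and sums of 716 to 1171 against 732 to 1714, with Gjb6 and Gjb2 under the limit for testing. Neuron markers, 13 of 13, had 9 negative and sums of 587 to 722 against 476 to 589, with Slc17a6 and Slc17a7 under that limit. Fibroblast and meningeal markers, 10 of 10, summed to 175 to 275 against 158 to 292, with Lum and Pdgfrb under it. Endothelial markers, 6 of 6, summed to 64.7 to 99.2 against 60.4 to 93.1, with Cldn5, Pecam1, Cdh5 and Tek under it. Lymphocyte markers, 6 of 7, had 2 negative and summed to 175 to 236 against 85.7 to 122. That difference lay in 1 of them, Ighm, with 214, 207 and 154 against 48.9, 72.8 and 79.2. Cd3e, Cd3g, Cd79a and Ms4a1 were under the limit for testing. The part of these cells in the values of the cell cycle genes was not tested.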

How the data were processed

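Total RNA was labelled in a kit for amplification in a pair of rounds, per the labels' protocols, which can favour probes near the 3' end. The authors deposited linear probe set intensity values, and the submitters' processing notes name GCOS without a version. The algorithm behind them was not given in the sources used here. A trimmed mean that leaves out 2% at either end was 100 on every array. Replicates were numbered in order of deposit and pair nothing, and 0 values were equal on a pair of arrays.

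Log2 was taken after adding 16. Of 45101 probe sets 64 controls were left out, 34945 had 1 symbol, 932 several and 9160 none, from the platform annotation. Older symbols were matched through GRCm38.p6. Probe sets with a mean signal at or above the 40th percentile (8.51) were tested with limma 3.58.1 in R 4.3.3 (intensity trend, two-sided, Benjamini-Hochberg over 27022). The steps were run on simulated data with larger changes than any member had, which does not cover changes of the size seen in the members. Members and lists, and the gene lists described beside them, were chosen with earlier results of these data known, as was the rule for named genes: all members, Tyrobp, the 3 of each further list with the smallest p per direction, and sex-linked genes. The genes whose promoters are printed, the gap between phases, and the counts of mitosis genes lower or without overlap, were chosen after values were seen. Alternatives covered pseudocounts, scaling, filters, variance models, probe sets, covariates and single arrays. The Y-linked term averages Eif2s3y, Kdm5d and Uty on the log2 scale.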

Additional observations from a re-analysis of the deposited data

How the results depend on the processing

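No paired analysis was possible because the replicate numbers follow the order of deposit and the labels give the groups no shared numbers. Of 639 values of single members under 20 alternatives, 574 kept their direction and side of the threshold, 65 changed sign, and 0 passed the threshold. The number of probe sets past the threshold, 2 as reported, was 5 with a common median, 4 with array weights, 4 of 12527 genes without _s_at and _x_at probe sets and 11 with the Y-linked term, and 2 to 172 with 1 array left out (15 without Dap12-deficient array 1 and 172 without array 2). A common median moved the median of all genes to -0.23 from -0.03 and that of the mitosis genes to -0.62, which is -0.39 relative to all genes, against -0.35 as deposited. Their number without overlap was 13 there and 4 after cyclic loess, beside 3088 and 1149 of the 12875 genes, against 1140 as deposited. Leaving out 1 array gave mitosis medians from -0.55 to -0.29, with 17 to 19 genes negative, and replication medians from -0.21 to 0.15. Between 7 and 17 mitosis genes then lay wholly below wild-type. Of the 12875 genes 13.3% to 16.7% did so in these smaller sets, against 8.85% with all arrays. The count of 7 came without Dap12-deficient array 2, where the share of all genes was 16.7%. With the Y-linked term the median was 0.64 for replication and 0.25 for mitosis genes, of which 6 were negative. That term differs between all wild-type and all Dap12-deficient arrays, so that the fit rests on the few differences within a group. The cause of these shifts was not tested.

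Members that changed sign had these log2 differences. With the Y-linked term they were 0.62 for Rrm1, 0.46 for Tk1, 0.97 for Mcm3, 0.497 for Mki67, 0.35 for Top2a, 0.14 for Ccna2, 0.64 for Ccnb2, 0.0396 for Cdk1, 0.15 for Cdc20, 0.404 for Aurka, 0.71 for Aurkb, 1.07 for Bub1b, 0.5002 for Plk1, 0.27 for Prc1, 1.003 for Ube2c and 0.25 for Hmmr. With a common median they were -0.0673 for Mcm2, -0.23 for Mcm4, -0.23 for Mcm5 and -0.22 for Mcm7. With the mean of all probe sets they were 0.0527 for Tyms, 0.11 for Rrm1, 0.11 for Mcm3, -0.15 for Mcm4, -0.0732 for Mcm5, 0.029 for Aurka, 0.028 for Bub1b, 0.026 for Kif11, 0.0245 for Prc1 and 0.035 for Ccnd1. Without _s_at and _x_at sets they were -0.0756 for Mcm2, 0.0319 for Mcm3, -0.31 for Mcm4, 0.0844 for Bub1b, 0.196 for Prc1 and 0.0627 for Ccne1. Kif11 had 0.022 with array weights and 0.00081 with a pseudocount of 1. Pcna had 0.0399 after quantile normalization and 0.0096 after cyclic loess, where Rrm1 had 0.011. With 1 array left out, the values of Tyms, Rrm1, Pcna, Mcm2, Mcm3, Mcm4, Mcm5, Mcm7, Aurka and Kif11 changed sign. They ranged from -0.188 to 0.032 for Tyms, from -0.199 to 0.124 for Rrm1, from -0.22 to 0.169 for Pcna, from -0.018 to 0.423 for Mcm2, from -0.242 to 0.147 for Mcm3, from -0.291 to 0.225 for Mcm4, from -0.261 to 0.187 for Mcm5, from -0.224 to 0.196 for Mcm7, from -0.179 to 0.061 for Aurka and from -0.16 to 0.19 for Kif11.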
